A study of Mus musculus with 7 samples.

Results

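The miR-101 family was represented by 3 of the 1881 mouse microRNA (miRNA) names on the array, mmu-miR-101a-3p, mmu-miR-101b-3p and mmu-miR-101c, written below without the species prefix. The family was selected on the log2 signal difference between EAM and LAD arrays, where miR-101a-3p and miR-101c stood near the top, and its members were then found by name. That difference is therefore given as a description, with no test. The RNA was total RNA of CD4+ T cells, which help other immune cells, enriched from draining lymph nodes by positive selection with anti-CD4 antibody and magnetic beads. EAM, a mouse model of myocarditis, gave 4 arrays labelled day 6 after induction, and LAD, a mouse model of myocardial infarction, gave 3 arrays labelled day 3. The series text counts 4 EAM and 3 LAD mice and gives the days in the opposite order. The labels used here state no strain, age or sex and hold no cells of healthy mice, so the model and its day cannot be told apart. Nothing states how RNA samples were tied to single mice, so n counts arrays and p-values measure only the spread between them.

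A miRNA guides a silencing complex to messenger RNAs that pair with its seed, the bases from the second to the eighth. miR-101 guide strands are known for lowering EZH2, the enzyme that writes the repressive H3K27 methyl mark, in human cancer cells. In mouse T cells miR-101 takes part in restraining Icos, a costimulatory receptor of activated and follicular helper T cells.

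The mature sequences below, from RefSeq (GRCm38.p6), show that the 3 names are close variants of 1 sequence, read from different first bases. Capitals mark the seed.
miR-101a-3p: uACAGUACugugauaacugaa
miR-101b-3p: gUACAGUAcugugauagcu
miR-101c: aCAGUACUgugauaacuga
All 19 bases of miR-101c lie within miR-101a-3p, at its bases 2 to 20. miR-101b-3p aligns with bases 1 to 18 of miR-101a-3p with 1 mismatch, A16G (base of miR-101a-3p first, counted from 1 at its 5′ end). Because the first bases differ, the 3 seeds differ, and among the 1608 array names with a RefSeq mature sequence each of these seeds belonged to 1 name. The mature sequence of miR-101a-3p lies on chromosome 4 (101346957 to 101346977, minus strand), within the span of the noncoding RNA gene E130102H24Rik. That of miR-101b-3p lies on chromosome 19 (29135338 to 29135356, plus strand), within the span of the protein-coding gene Rcl1, and that of miR-101c lies on chromosome 9 (3038680 to 3038698, minus strand), where no other listed gene overlaps it.

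RefSeq gives the hairpin precursors of Mir101a and Mir101b, shown here with the mature 3p arm in capitals to place the mismatch and the bases that follow the annotated end of miR-101b-3p.
Mir101a: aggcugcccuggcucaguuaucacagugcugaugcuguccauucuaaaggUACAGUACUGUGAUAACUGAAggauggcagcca
Mir101b: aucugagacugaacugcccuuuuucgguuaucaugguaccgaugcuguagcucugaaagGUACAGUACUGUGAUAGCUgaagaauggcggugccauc

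Each name was measured by 2 probes, with 15 replicate spots per probe on every array. The 6 probes are shown because their sequences bear on whether the names can be told apart. For miR-101a-3p and miR-101c, capitals mark the 18 bases that all 4 probes share, and for miR-101b-3p they mark the base that differs from the complement of miR-101a-3p.
miR-101a-3p, 21 bases: tTCAGTTATCACAGTACTGta
miR-101a-3p, 20 bases: tTCAGTTATCACAGTACTGt
miR-101c, 19 bases: TCAGTTATCACAGTACTGt
miR-101c, 18 bases: TCAGTTATCACAGTACTG
miR-101b-3p, 19 bases: agCtatcacagtactgtac
miR-101b-3p, 18 bases: agCtatcacagtactgta
Both miR-101c probes are perfect complements of miR-101a-3p as well, of its bases 2 to 20 and 3 to 20. Their signal therefore cannot be assigned to miR-101c rather than miR-101a-3p RNA, and values under the name miR-101c are those of its probes. The 20-base miR-101a-3p probe differs from the 19-base miR-101c probe by 1 T at its 5′ end, which pairs with the last base of miR-101a-3p. Neither miR-101b-3p probe is a perfect complement of the other names. The array design gave a genome position for the miR-101a-3p probes and listed those of miR-101b-3p and miR-101c as unmapped.

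The whole array set the frame for these values. The scanner software detected 445 to 471 miRNAs on the EAM arrays and 311 to 380 on the LAD arrays, and 251 names were detected on all 7. The 75th percentile of unscaled signal, over 303 probes detected on all arrays, was 801 to 1068 intensity units on EAM arrays and 124 to 515 on LAD arrays. All 7 arrays carried 1 scan time. Each slide column, as named in the deposited files, held 1 group, and its effect cannot be told apart from that of the group. Of the pan-leukocyte and lymphocyte markers, miR-142a-3p, miR-150-5p and miR-342-3p were detected on all arrays, while the 3 heart muscle and 4 stromal markers were detected on none. The endothelial miR-126a-3p was detected on 3 EAM and 2 LAD arrays. miR-150-5p (log2 difference 1.33, limma adjusted p = 0.0364) and miR-142a-3p (0.34, limma adjusted p = 0.0452) passed as higher in EAM. miR-342-3p did not pass (0.55, limma adjusted p = 0.154). Of 6 epithelial markers 5 were tested, and 4 passed as higher in EAM, as did 36.2% of all 423 tested miRNAs, while miR-200c-3p did not pass (limma adjusted p = 0.0863). Each of the 5 was detected on 4 EAM arrays and on 0 or 1 LAD array. They entered the test through EAM detection alone, so a higher EAM signal was largely set by that filter. The 6 had a summed signal of 35.7 to 57.9 units on EAM arrays and 0 to 13.0 on LAD arrays (quantile-normalized total gene signal), and miR-205-5p was detected on no array. The myeloid miR-223-3p, at 30.9 to 39.5 units on EAM arrays and 84.0 to 217 on LAD arrays, passed as lower in EAM (limma adjusted p = 0.0117). Array brightness and the markers that passed differed between the groups, and their part in the differences of the miR-101 names was not tested.

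miR-101a-3p was detected on every array. Its background-corrected, quantile-normalized log2 signal was 8.25, 8.17, 8.35 and 8.49 on EAM arrays 1 to 4, against 7.43, 6.31 and 5.66 on LAD arrays 1 to 3. All 4 EAM arrays lay above all 3 LAD arrays, and the LAD arrays spread far more than the EAM arrays. The mean was 8.31 ± 0.14 in EAM (SD, n = 4) and 6.47 ± 0.90 in LAD (SD, n = 3), a 3.60-fold difference (1.85 on the log2 scale). Relative to the EAM mean, LAD array 1 was 1.85-fold lower, LAD array 2 was 4.01-fold lower and LAD array 3 was 6.31-fold lower. The difference became 2.33 (log2) when LAD array 1 was left out and 1.44 when LAD array 3 was. In bulk RNA of selected cells, fewer cells of a type that holds a miRNA and less of it per cell cannot be told apart. Of the 423 tested miRNAs, 32 had a larger SD among LAD arrays than miR-101a-3p, and their median SD there was 0.34.

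The name miR-101c, whose probes also match miR-101a-3p, was detected on every array and followed the same order of arrays. Its log2 signal was 7.56, 7.42, 7.80 and 7.96 on EAM arrays 1 to 4, against 6.47, 5.54 and 5.03 on LAD arrays 1 to 3. The groups did not overlap, and LAD array 1 was again nearest to EAM. The mean was 7.69 ± 0.24 in EAM (SD, n = 4) and 5.68 ± 0.73 in LAD (SD, n = 3), a 4.02-fold difference (2.01 on the log2 scale), which became 2.40 when LAD array 1 was left out and 1.69 when LAD array 3 was.

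miR-101b-3p, the variant from chromosome 19, was detected on all 4 EAM arrays and on no LAD array. Its log2 signal was 4.86, 5.0, 5.07 and 5.21 on EAM arrays 1 to 4, against 4.34, 4.53 and 4.22 on LAD arrays 1 to 3. The groups lay apart, but all LAD values were near the lowest level the arrays could measure. Measured means were 5.04 ± 0.14 in EAM (SD, n = 4) and 4.36 ± 0.16 in LAD (SD, n = 3), 0.67 apart. When LAD values below the dimmest detected miRNA of their array were raised to it, which held for 2 of the 3, miR-101b-3p was 1.53-fold higher in EAM. The remaining LAD value was kept as measured, though undetected. The dimmest detected miRNA is not a detection limit of these probes, so 1.53-fold is not a lower bound. It holds for these background-corrected and quantile-normalized values only.

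**Figure D1:**
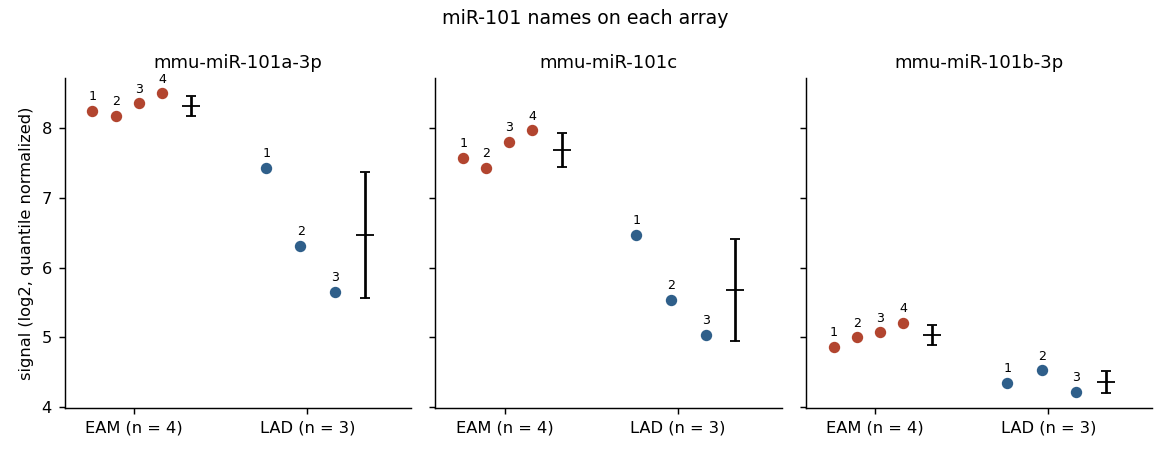
Quantile-normalized log2 signal of miR-101a-3p, miR-101c and miR-101b-3p on each array, with array numbers beside the points and the mean and SD of each group to their right. For all 3 names every EAM array lies above every LAD array, and the LAD arrays of miR-101a-3p run from 7.43 to 5.66.

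For each of the 3 names all EAM arrays lay above all LAD arrays, as they did for 33.8% of the 423 tested miRNAs. miR-101b-3p entered the test through EAM detection alone, so its higher EAM signal and its place below were largely set by that filter. The 33.8% also covers tested names not detected on all 7 arrays, and the share without them was not taken. In the limma fit over all 423 tested miRNAs, 59.8% passed at an adjusted p under 0.05, with 36.2% higher and 23.6% lower in EAM. The median difference was 0.30 (log2). Those were 153 higher and 100 lower, a split that was 84 and 115 with scaling to the 75th percentile over detected probes, 264 and 58 with median centring and 299 and 2 without scaling. Among the 251 names detected on all 7 arrays, as miR-101a-3p and miR-101c were, the split was 50 and 83. The median difference of those names was -0.10 (log2). Ranked by their difference toward EAM, miR-101c was number 1, miR-101a-3p number 2 and miR-101b-3p number 78 of 423. Because the miR-101c probes also match miR-101a-3p, places 1 and 2 cannot be read as separate changes of 2 RNAs. This rank was part of the reason for choosing the names. In 10 sets of values, which are not independent of each other, the difference ranged from 1.39 to 3.27 for miR-101a-3p and from 1.32 to 3.20 for miR-101c. After the median of all tested miRNAs was taken off, it ranged from 1.25 to 2.11 for miR-101a-3p and from 1.17 to 2.13 for miR-101c. The place in the order ranged from 2 to 81 for miR-101a-3p and from 1 to 38 for miR-101c, and the last place was by total gene signal for both. For miR-101b-3p the difference ranged from 0.25 with local background and an offset of 50 to 2.39 when arrays were scaled to their 75th percentile over all probes (0.07 to 1.81 after the median was taken off), and its place from 21 to 186. With LAD values at or near the floor of each processing (all 3 LAD values were 0 by total gene signal), the size of these differences is set by that floor.

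**Figure D2:**
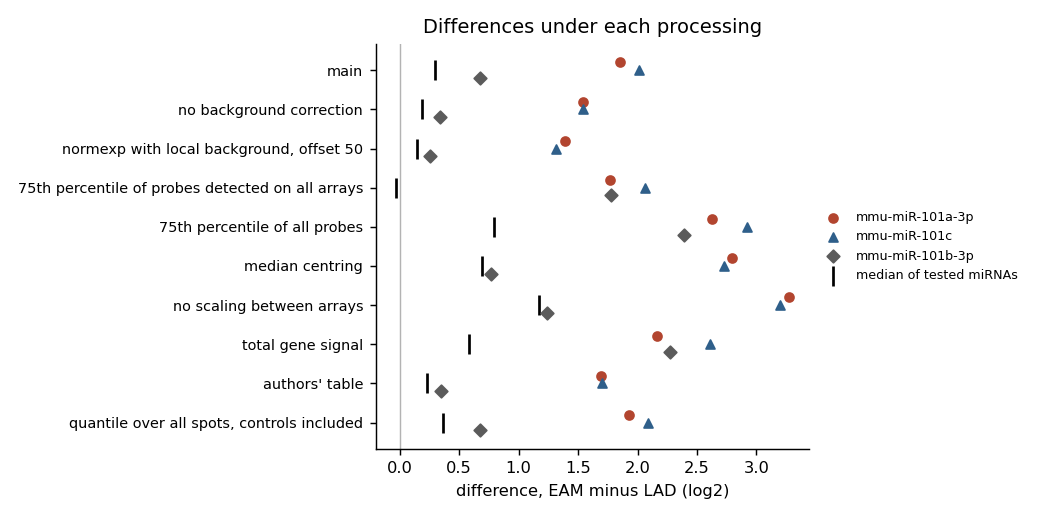
Difference of each miR-101 name, EAM minus LAD (log2), under each processing, with the median of the 423 tested miRNAs as a vertical tick. All 3 names lie above the median in all 10 sets, miR-101b-3p by as little as 0.07. The difference of miR-101b-3p runs from 0.25 to 2.39.

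In the authors' table, which was normalized without background correction as far as its values show, miR-101b-3p had log2 values of 5.88, 5.95, 5.99 and 6.07 on EAM arrays and 5.62, 5.70 and 5.56 on LAD arrays. The median of all names in that table was 5.55 to 5.56 on every array, and miR-101b-3p stood close to it on LAD arrays. miR-101a-3p had 8.53, 8.43, 8.81 and 8.93 on EAM arrays and 7.75, 6.85 and 6.35 on LAD arrays there, and miR-101c had 7.85, 7.73, 8.36 and 8.51 against 6.98, 6.29 and 5.96. The order of arrays within LAD was the same in that table.

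Unscaled signals showed how much light stood behind the values. The 20-base miR-101a-3p probe had a background-subtracted signal of 441, 446, 443 and 657 intensity units on EAM arrays 1 to 4, against 64.1, 44.3 and 15.4 on LAD arrays 1 to 3. The 19-base miR-101c probe had 391, 376, 421 and 645 on the EAM arrays, against 52.1, 33.8 and 13.8 on the LAD arrays. The LAD signals were thus low in absolute terms, most of all on LAD array 3. There, 5 of 15 spots of the 20-base miR-101a-3p probe, 3 of 15 of the 19-base miR-101c probe and 0 of 15 of the 18-base miR-101c probe were well above background, against 15 of 15 for each on every EAM array. Before scaling, the mean of the 20-base miR-101a-3p probe was 497 ± 107 in EAM (SD, n = 4) and 41.3 ± 24.5 in LAD (SD, n = 3), a 12-fold ratio that includes the brightness of the arrays.

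The brightest LAD array was not the one with the highest signal of miR-101a-3p or miR-101c. LAD array 2 had a 75th percentile of 515 units, against 197 on LAD array 1 and 124 on LAD array 3. As a share of that percentile, the 20-base miR-101a-3p probe stood at 51.1%, 45.4%, 55.3% and 61.5% on EAM arrays 1 to 4, against 32.6%, 8.60% and 12.4% on LAD arrays 1 to 3. The 19-base miR-101c probe stood at 45.3%, 38.3%, 52.6% and 60.4% on the EAM arrays, against 26.5%, 6.56% and 11.1% on the LAD arrays. By this scale LAD array 2 was the lowest for both, while after quantile normalization LAD array 3 was. LAD array 1 was the highest of the LAD arrays by both scales and lay below every EAM array by both.

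**Figure D3:**
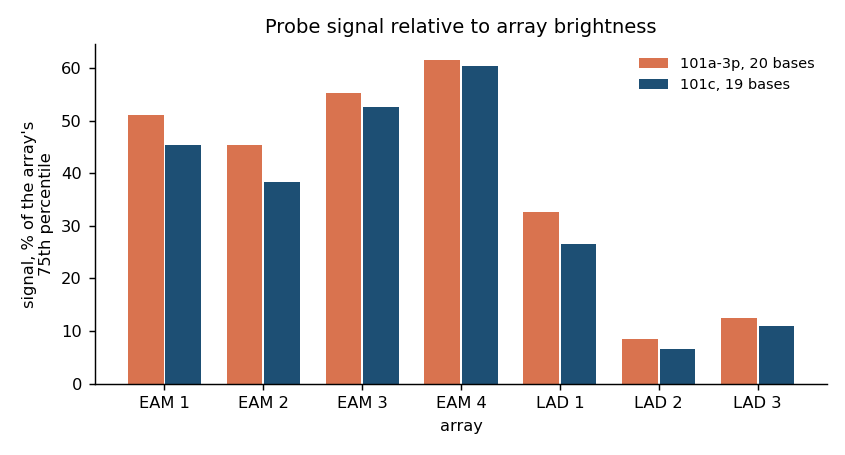
Background-subtracted signal of the 20-base miR-101a-3p probe and the 19-base miR-101c probe on each array, as a percentage of that array's 75th percentile over 303 probes detected on all arrays. EAM arrays run from 38.3% to 61.5%, and LAD arrays from 6.56% to 32.6%, with LAD array 2 the lowest.

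Taken as medians of their replicate spots, the probes of miR-101a-3p and miR-101c moved together from array to array. Across the 7 arrays the log2 values of the 20-base miR-101a-3p probe and the 19-base miR-101c probe correlated at Pearson's r = 0.9968, against 0.9996 for the 2 probes of miR-101a-3p and 0.9967 for the 2 probes of miR-101c. These correlations, over 7 arrays that share the group difference and the array brightness, are a description. The 4 probes differed between EAM and LAD by 1.82 and 1.88 (log2) for the 21- and 20-base probes of miR-101a-3p and by 2.01 and 2.00 for the 19- and 18-base probes of miR-101c. None of the 630 spots of the family was saturated, and 14 were marked as outliers.

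**Figure D4:**
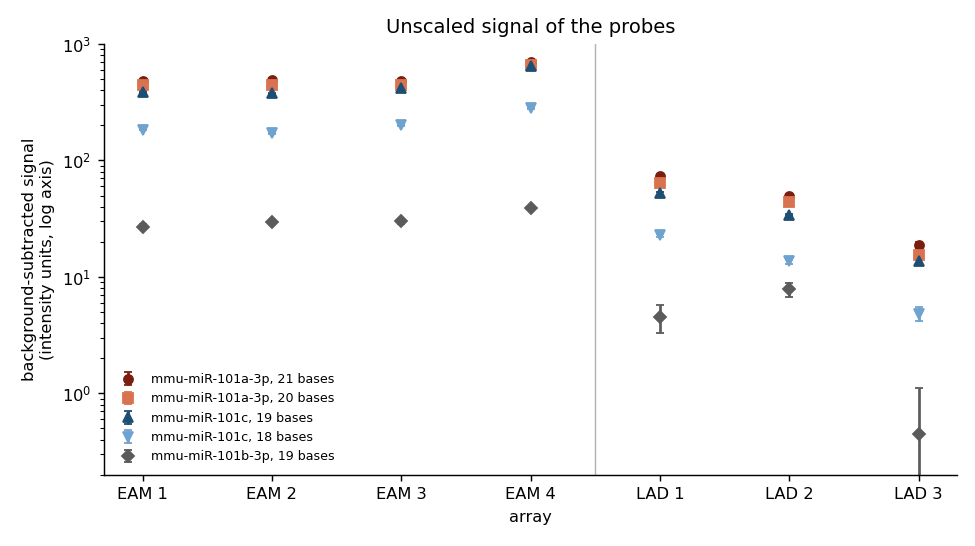
Background-subtracted, unscaled signal of 5 miR-101 probes on each array, on a log axis, with the standard error over replicate spots. The 21-, 20- and 19-base probes of miR-101a-3p and miR-101c run close together on every array, from 376 to 699 units on EAM arrays and from 13.8 to 73.5 on LAD arrays. The 18-base miR-101b-3p probe, negative on 2 LAD arrays, is left out, and the lower error bar of miR-101b-3p on LAD array 3 runs past the axis.

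Within an array, the step from the 20-base miR-101a-3p probe to the 19-base miR-101c probe was about as large as that between the probes of miR-101a-3p. The 19-base miR-101c probe gave 87.6 ± 7.63% of the signal of the 20-base miR-101a-3p probe (SD, n = 7 arrays), and the 20-base probe gave 89.7 ± 4.35% of the 21-base probe of the same name. By contrast, the 18-base miR-101c probe gave 43.4 ± 4.33% of the 19-base probe of the same name. The signal of a probe depends on how well it binds as well as on the RNA, so none of these ratios is a ratio of RNA amounts. What can be read from them is whether they change from array to array.

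The ratio between the names varied from array to array. The 19-base miR-101c probe stood at 88.7%, 84.3%, 95.1% and 98.2% of the 20-base miR-101a-3p probe on EAM arrays 1 to 4, with standard errors over spots of 1.46%, 1.35%, 1.18% and 1.01%. On LAD arrays 1 to 3 it stood at 81.2%, 76.3% and 89.2%, with standard errors of 3.36%, 2.91% and 7.29%. The ratio on EAM arrays ran over a wider range than these errors, which cover the spots of 1 array and not the variation between arrays, and the groups overlapped. Over the 4 EAM arrays the SD of the log2 ratio was 0.10 between the names, 0.02 between the 2 probes of miR-101a-3p and 0.05 between the 2 probes of miR-101c. In the same order it was 0.11, 0.07 and 0.16 over the LAD arrays and 0.13, 0.07 and 0.15 over all 7 arrays. Outside EAM the ratio between the names was thus steadier than that between the 2 probes of miR-101c. The mean of the ratio between the names was 91.6 ± 6.25% in EAM (SD, n = 4) and 82.2 ± 6.46% in LAD (SD, n = 3).

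The ratios of probes with the same name lay lower on LAD arrays, but the nearest arrays of the 2 groups differed by less than the spot error. The 20-base miR-101a-3p probe stood at 91.2% to 93.9% of the 21-base probe on EAM arrays and at 81.4% to 88.8% on LAD arrays, where the nearest were EAM array 2 (standard error 1.48%) and LAD array 2 (3.95%). The 18-base miR-101c probe stood at 44.0% to 48.0% of the 19-base probe on EAM arrays and at 35.2% to 43.8% on LAD arrays, where the nearest were EAM array 4 (0.88%) and LAD array 1 (1.88%). All these probes were dim on the LAD arrays, and the miR-101c probes are the shorter ones of the family's nested set. After normexp correction and quantile normalization, the gap of the 19-base over the 18-base miR-101c probe was 0.89 ± 0.05 (log2) in EAM (SD, n = 4) and 0.88 ± 0.16 in LAD (SD, n = 3). That of the 21-base over the 20-base miR-101a-3p probe was 0.10 ± 0.01 in EAM (SD, n = 4) and 0.17 ± 0.03 in LAD (SD, n = 3), with no overlap between the groups. The part of probe length or low signal in the ratio between the names was not tested.

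In the summarized log2 values, the gap of miR-101a-3p over miR-101c was 0.68, 0.75, 0.55 and 0.53 on EAM arrays 1 to 4, against 0.96, 0.77 and 0.62 on LAD arrays 1 to 3. The groups overlapped. The mean gap was 0.63 ± 0.11 in EAM (SD, n = 4) and 0.79 ± 0.17 in LAD (SD, n = 3). The difference of -0.16 (EAM minus LAD) lay between -0.44 and 0.08 in the other sets of values, so it had no stable sign. Over the 7 arrays the SD of this gap was 0.15. The gap over all arrays includes the difference between EAM and LAD on which both names were chosen, so miRNAs with another difference have a larger SD by that choice, and the next values are a description only. No other tested miRNA kept a steadier gap to miR-101a-3p (the next smallest SD was 0.26, the median 1.0 over 422) or to miR-101c (0.35 and 1.04). Among all 31375 pairs of names detected on every array, 4.67% had a smaller SD of their gap. A probe of one name lay inside a probe of another in 3 of these pairs. The other two were miR-378a-3p with miR-378d and miR-466f-3p with miR-466i-3p, with SDs of 0.29 and 0.39.

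miR-101b-3p was measured nearer to background. Its 19-base probe had an unscaled signal of 27.1, 29.7, 29.9 and 39.1 units on EAM arrays 1 to 4, against 4.52, 7.82 and 0.45 on LAD arrays 1 to 3. On the EAM arrays 57 of 60 spots were well above background, and on the LAD arrays 0 of 45 were. Its 18-base probe had 7.53, 8.34, 8.75 and 12.7 units on EAM arrays, with 3 of 60 spots well above background, against -1.28, 1.12 and -1.26 on LAD arrays, so the detection of the name rested on the longer probe.

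Relative to the 20-base miR-101a-3p probe, the 19-base miR-101b-3p probe stood at 6.15%, 6.65%, 6.75% and 5.95% on EAM arrays 1 to 4, a narrow range. On LAD arrays 1 to 3 it stood at 7.05%, 17.7% and 2.90%, with standard errors over spots of 1.88%, 2.51% and 4.30%. On LAD arrays 0 of 15 spots of the miR-101b-3p probe were well above background on each array, so these 3 ratios give no order of arrays. Whether miR-101a-3p RNA binds the miR-101b-3p probe, from whose complement it differs at A16G, was not tested. The gap of miR-101a-3p over miR-101b-3p was 3.28 ± 0.09 (log2) on EAM arrays (SD, n = 4). No gap is given here for LAD arrays, where miR-101b-3p was not detected. The EAM minus LAD differences of this gap in the closing section rest on those undetected LAD values.

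**Figure D5:**
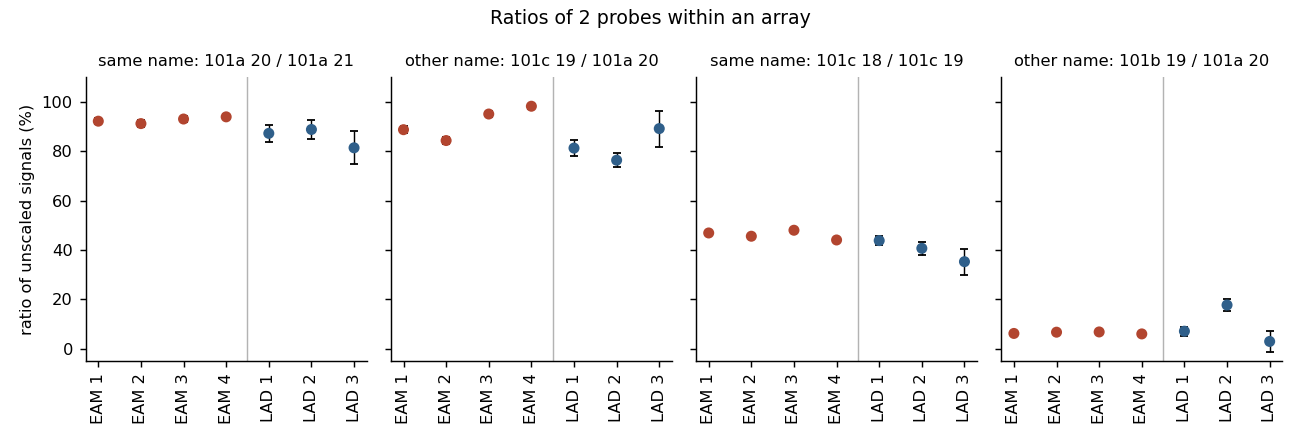
Ratio of the unscaled signals of 2 probes within each array, in percent, with standard errors over replicate spots. From left to right the panels show the 2 probes of miR-101a-3p, miR-101c over miR-101a-3p, the 2 probes of miR-101c, and miR-101b-3p over miR-101a-3p; the last lies between 5.95% and 6.75% on EAM arrays, and on LAD arrays it rests on spots not well above background.

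The other arm of the Mir101a and Mir101b hairpins was not seen. miR-101a-5p, measured by 4 probes, and miR-101b-5p, measured by 2, were detected on no array. Of 210 spots over the 7 arrays for each of these names, 1 spot was well above background, on an EAM array. Background-subtracted signal averaged at most 4.76 units per array for miR-101a-5p and 1.21 for miR-101b-5p. The signal of Mir101a and Mir101b in these cells, as far as the arrays detected it, was therefore on the 3p arm. For Mir101c the array held no name for another arm.

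Of the array names matched to RefSeq, 5 carry the hexamer ACAGUA from base 1, 2 or 3, among them the 3 miR-101 names. In miR-101c it starts at base 1, before the seed. The other two are miR-144-3p, a red cell miRNA, and miR-199a-3p, a miRNA of stromal cells, shown with the hexamer in capitals.
miR-101a-3p: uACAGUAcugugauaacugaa
miR-144-3p: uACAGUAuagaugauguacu
miR-199a-3p: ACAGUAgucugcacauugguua
Neither miR-144-3p nor miR-199a-3p was detected on any array, and each had 1 of 210 spots well above background. The other red cell marker, miR-451a, was detected on all 7 arrays, at log2 6.38 to 6.94 on EAM and 6.10 to 7.59 on LAD arrays. Its difference was -0.13 (EAM minus LAD, limma adjusted p = 0.741). Among names with this hexamer, only those of the miR-101 family were detected in these cells.

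Of the other miRNAs known to restrain Ezh2 in human or mouse cells, miR-26a-5p and miR-26b-5p were detected on all arrays, and miR-138-5p, miR-214-3p and miR-124-3p on none. None of the 2 tested passed (limma over 423 miRNAs, of which 59.8% passed; 1 of the 2 at an unadjusted p under 0.05), and their median difference was 0.30, the same as the 0.30 of all tested miRNAs. miR-26a-5p, a miRNA of resting lymphocytes, had a log2 signal of 10.95 to 11.04 on EAM arrays, against 11.03, 10.85 and 10.91 on LAD arrays (difference 0.06, SE 0.11, limma adjusted p = 0.635). The groups of miR-26a-5p overlapped and lay within a narrow band.

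miR-26b-5p, which differs from miR-26a-5p outside the seed, had 10.87, 10.92, 10.96 and 11.08 on EAM arrays, against 10.93, 9.98 and 10.32 on LAD arrays (difference 0.55, SE 0.21, limma adjusted p = 0.0547). LAD array 1 lay among the EAM arrays, and LAD arrays 2 and 3 lay below them. miR-26b-5p passed as higher in EAM in 7 of 18 settings (the 10 sets of values, the replicate number as a block and each array left out) and miR-26a-5p in 4, and neither passed as lower in any of them.

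miR-146a-5p, which restrains Icos in mouse T cells and damps NF-κB signalling, was 3.30-fold higher in EAM. Its log2 signal was 8.77, 8.84, 8.92 and 8.89 on EAM arrays, against 8.43, 6.28 and 6.69 on LAD arrays (difference 1.72, SE 0.45, limma adjusted p = 0.0192). All EAM arrays lay above all LAD arrays, and LAD array 1 was nearest to them. Over 18 settings its adjusted p ranged from 0.000164 to 0.0868, and it passed in 14. It did not pass without EAM array 3, EAM array 4 or LAD array 3 (limma adjusted p = 0.0524, 0.0556 and 0.0683), or with the replicate number as a block (0.0868).

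The miRNAs whose profile over the 7 arrays was most like that of miR-101a-3p in the main values were miR-30b-5p (Pearson's r = 0.9965), miR-101c (0.9921), miR-139-5p (0.9838), miR-378d (0.983) and miR-3535 (0.9779). Those most like miR-101c were miR-3535 (0.9922), miR-101a-3p (0.9921), miR-139-5p (0.991), miR-6516-5p (0.982) and miR-151-5p (0.9817). miR-101b-3p came at place 45 for miR-101a-3p (0.8736) and place 32 for miR-101c (0.9136). These are descriptions over 7 arrays in which the group difference and the brightness of the arrays are shared, and 13 of 422 miRNAs had an r over 0.95 with miR-101a-3p.

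The miRNA most like miR-101a-3p in profile differed from it in size of change. miR-30b-5p had a log2 signal of 9.66 ± 0.07 in EAM (SD, n = 4) and 8.96 ± 0.41 in LAD (SD, n = 3), a difference of 0.70 against 1.85 for miR-101a-3p, so the SD of its gap to miR-101a-3p was 0.68 against 0.15 for miR-101c. After the group means were taken out, miR-30b-5p and miR-101c were still first and second of 422 in correlation with miR-101a-3p (0.9992 and 0.9794), where the LAD arrays of miR-101a-3p spread most (SD 0.14 in EAM and 0.90 in LAD).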

How the data were processed

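Per the file headers, the deposited scanner files were made with Agilent Feature Extraction 10.7.3.1 from one-colour (Cy3) arrays and give intensity per spot, unscaled between arrays, total signal per miRNA name, beside other, yes-or-no columns for detection, background, saturation and outlying spots. The authors' deposited table is in log2 units, and the submitters' processing notes name RMA with no version. Its values were nearest to log2 signal without background correction, quantile normalized over all spots (Pearson's r across values 0.99983, 95.7% within 0.1) or over non-control spots (0.99872, 96.5%). It was used as given, and each array's median was 5.55 to 5.56.

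Mean spot signal was corrected with normexp (limma 3.58.1 in R 4.3.3, with files read by version 1.17.8 of data.table; foreground only, no offset), quantile normalized over non-control spots, log2 transformed, taken as the median of unflagged spots per probe and summarized by median polish. A name entered the tests if all arrays of EAM or all of LAD detected it, which left 423 miRNAs for limma and Benjamini-Hochberg adjustment. Standard errors over spots use background-subtracted signal and cover the spots of an array only. Precision is limited by how many arrays there are.

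The members, lists and tests were chosen with earlier results of these data known. Named were the 3 members, the list miRNAs, names with the hexamer ACAGUA, and the 5 miRNAs with the highest r to miR-101a-3p and to miR-101c. The pairs with nested probes were looked for after the values were seen. The fit was checked on simulated data with the spread of the EAM arrays in both groups. That check does not cover the wider spread of the LAD arrays (median SD over tested miRNAs 0.34, against 0.10 in EAM). Alternatives were other background corrections, scalings and summaries, the authors' table, detection filters, the replicate number as a block and leaving out each array. Coordinates are those of RefSeq (GRCm38.p6), and the array design's own build was not used for them.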

Additional observations from a re-analysis of the deposited data

Results flagged for a closer look

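Among 28 measures checked over the 4 EAM arrays, 1 had an array far from the others: miR-142a-3p, a leukocyte miRNA, had a log2 signal of 14.99 on EAM array 2 and 14.68 to 14.71 on the other 3 EAM arrays. Chance marks about 5% of such groups, and none of the miR-101 names, probes or ratios was among those marked.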

How the results depend on the processing

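Differences are EAM minus LAD (log2). Without any single array, miR-101a-3p differed by 1.44 to 2.33, miR-101c by 1.69 to 2.40 and miR-101b-3p by 0.60 to 0.76. The gap of miR-101a-3p over miR-101c ranged from -0.24 to -0.07, the gap over miR-101b-3p from 0.84 to 1.67, the called miRNAs from 72 (without EAM array 4) to 345 (without LAD array 2), and the called list miRNAs from 0 to 2. Without LAD array 1, LAD array 3 or EAM arrays 1 to 3 the calls were 150, 122, 120, 120 and 94. miR-101a-3p was 2.62 with the 75th percentile of all probes, 2.80 with median centring and 3.27 without scaling, and miR-101c was 2.92, 2.72 and 3.20, 1.32 with local background and 2.61 by total gene signal. miR-101b-3p was 0.34 without background correction, 0.25 with local background, 1.78 and 2.39 with the 75th percentile of detected and of all probes, 1.24 without scaling, 2.27 by total gene signal and 0.35 in the authors' table. The gap of miR-101a-3p over miR-101c differed by 0.000953 without background correction, 0.076 with local background, -0.30 with either 75th percentile, 0.0727 with median centring or without scaling, -0.44 by total gene signal and -0.0069 in the authors' table. That over miR-101b-3p, which was undetected on LAD arrays, so that each floor sets these values and its own differences, was -0.0134 and 0.23 with the 75th percentile of detected and of all probes, 2.03 with median centring or without scaling and -0.11 by total gene signal. The median of the 6 probe differences was 3.14 without scaling. The 253 calls became 133 with names detected on all arrays and 452 of 1881 with no filter. By direction, 153 of the 253 were higher and 100 lower in EAM, against 84 and 115 when scaled to the 75th percentile over detected probes, 264 and 58 with median centring and 299 and 2 without scaling. That split was 50 and 83 with names detected on all arrays and 245 and 207 with no filter. Of the 3 tested list miRNAs, 2 passed with quantiles over all spots, an alternative added after seeing the data, or scaled to the 75th percentile over detected probes, and 3 with that over all probes, median centring, no scaling and the authors' table. With the replicate number as a block, which takes EAM array 4 out of the comparison, limma called 0 miRNAs (181 at an unadjusted p under 0.05) and 0 of the list. The numbers did not pair the arrays: deviations of same-numbered arrays correlated at 0.19, -0.16 and -0.19. The causes of these changes were not tested. The low signal of the family on LAD arrays, most of all on array 3, limits its LAD values.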
